A study of Mus musculus with 6 samples.

Results

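Chemokines and chemokine receptors were taken as the array genes whose name starts with Ccl, Cxcl, Ccr or Cxcr and a number, together with Cx3cl1, Xcl1 and Xcr1, with Ccl8 and Ccrn4l left out. By this rule 73 of 56605 probes belonged to the family, and they named 53 of the 36778 genes with a tested probe. Of these genes 35 encode ligands and 18 encode receptors. Total RNA of the left kidney of 3 WT and 3 Selenbp1-KO male mice, all C57BL/6J, 8 weeks old and fasted for 20 h without dioxin, was hybridized to 6 one-color Agilent arrays, 1 mouse on each. The paper's control mice were C57BL/6J bought from a breeder, while the Selenbp1-KO line was made in earlier work. The WT mice are therefore not described as littermates, and genotype and breeding source cannot be told apart. All values below are log2 signals relative to the 75th percentile of the array, or differences between them, Selenbp1-KO minus WT.

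Chemokines are small secreted proteins that draw leukocytes along a gradient. They act through receptors that couple to inhibitory G proteins, and the spacing of their first cysteines gives the CC, CXC, CX3C and C classes. In the kidney, tubule cells, endothelium and resident macrophages can make them, and the receptors are mostly carried by the leukocytes that follow them. In RNA of whole kidney, fewer cells of a type and less RNA per cell cannot be told apart.

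The 75th percentile of the signal lay between 477 and 751, and 51.8% to 55.5% of the spots on an array were well above background. WT replicates 2 and 3 lay in slide row 1, and WT replicate 4 and the 3 Selenbp1-KO arrays in slide row 2. The probe of Selenbp1, the targeted gene, read 7.02 to 7.07 in WT and 3.98 to 4.13 in Selenbp1-KO kidneys, so no array went against its label, although transcripts of Selenbp2 are also listed for this probe. Probes that were not well above background on any array differed by a median of 0.38, higher in Selenbp1-KO kidneys, against 0.01 for probes well above background on all 6. After quantile normalization the median of the dim probes was 0.01. The differences of dim genes below therefore stand beside a shift of 0.38 that the dim probes share.

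Of the 53 genes, 10 had an unadjusted p under 0.05 in limma, the criterion of the methods: 8 were higher and 2 lower in Selenbp1-KO kidneys. Among all 36778 genes, 7.99% passed the same criterion, 6.87% higher and 1.13% lower. Normexp background correction gave 9 higher and 0 lower, and quantile normalization 6 higher and 2 lower. None of the 53 passed after Benjamini–Hochberg adjustment over all probes, which 0.00357% of probes did, and the lowest adjusted p was 0.28. At an unadjusted p under 0.05 the methods' t-test called 7. The shares of all genes at that threshold in the alternatives are not given here. With limma's trend and robust options, 3 had an adjusted p under 0.05 (Ccl6, Ccl9 and Ccl24), as did 0.326% of all probes. The median difference of the 53 genes was 0.33, against 0.13 over all genes tested, and it was 0.08 with quantile normalization. Ligands had a median of 0.32 and receptors of 0.35.

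Signal decided how many of these genes could be read. A gene counts as read on an array where the scanner software called its probe well above background. On all 6 arrays, 21 genes were read, 17 of them ligands and 4 receptors. Another 5 were read on some of the arrays, and 27 on none, 14 ligands and 13 receptors. Among the 21, the ligands Ccl6, Ccl9 and Cxcl16 were higher in Selenbp1-KO kidneys and none was lower, with 4.42% higher and 1.07% lower among the 18276 genes of the same brightness. The Selenbp1-KO arrays all lay above the WT arrays for 4 of the 21, against 12.8% of those genes, and all below for 1, against 6.51%.

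**Figure D1:**
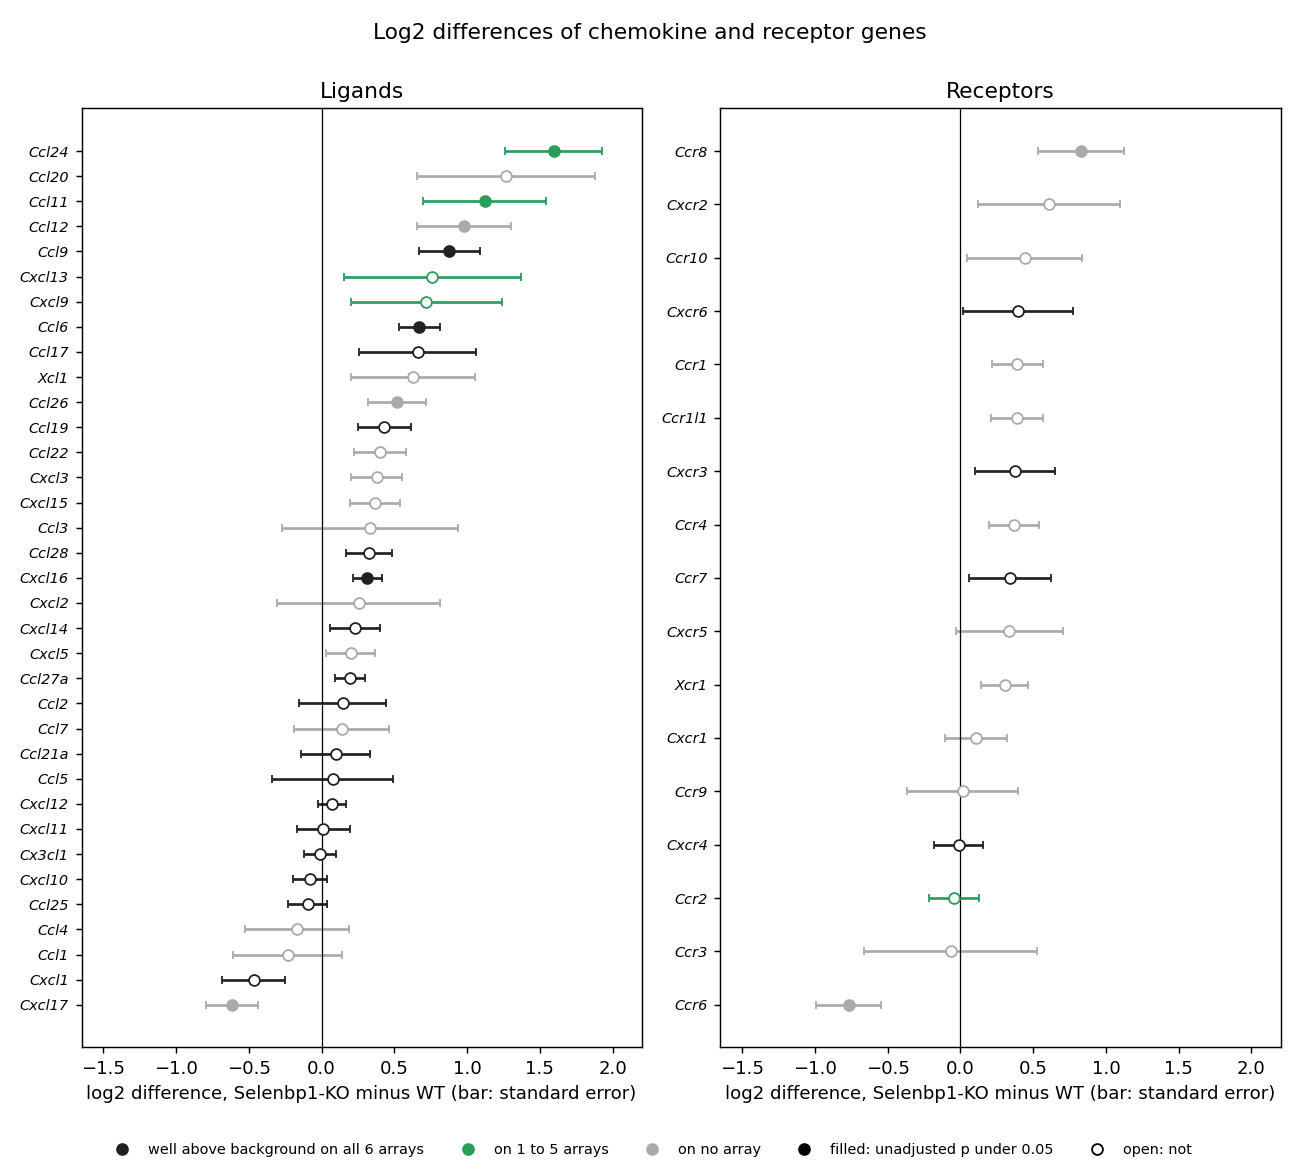
Log2 difference of the chemokine and receptor genes named in the text (x axis, log2 units, Selenbp1-KO minus WT, bars are standard errors from limma), ligands on the left and receptors on the right. Filled points have an unadjusted p under 0.05, and the colour gives on how many of the 6 arrays the probe was well above background: Ccl6, Ccl9 and Cxcl16 are the filled points among the genes read on all 6, and the grey points lie near background and give no size of change.

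Ccl6 and Ccl9 are CC ligands of macrophages and other myeloid cells, and both act on Ccr1. Their genes are neighbours on mouse chromosome 11. The start regions of both were taken from RefSeq (GRCm38.p6), since both genes were higher together. Each sequence below runs from 100 bases before the transcript start to 30 bases after it, on the minus strand, and the capitals mark runs of at least 9 bases that the other sequence also holds. That of Ccl6 lies at chr11:83593058-83593187 and that of Ccl9 at chr11:83578607-83578736.
Ccl6: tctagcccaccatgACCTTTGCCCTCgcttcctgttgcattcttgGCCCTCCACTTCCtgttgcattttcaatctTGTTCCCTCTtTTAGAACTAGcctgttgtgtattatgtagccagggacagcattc
Ccl9: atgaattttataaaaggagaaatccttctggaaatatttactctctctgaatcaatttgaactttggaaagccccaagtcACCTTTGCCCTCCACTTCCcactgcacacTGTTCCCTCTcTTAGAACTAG

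In these windows 45 bases of Ccl6 and 39 of Ccl9 lay in shared runs. The string TGTTCCCTCTNTTAGAACTAG is the longest stretch these windows share when a differing base, written N, is allowed. It was taken from them, so both were bound to hold it. Searched on both strands, it was held by 2 of 32851 promoter windows, those of Ccl6 and Ccl9. CACTTCC, the core that ETS factors read on the other strand, stood in both, but also in 11.0% of all promoter windows. The matches describe these letters only. Promoter windows were found for 38 of the 53 genes, and 7 of those genes held CACTTCC.

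Ccl6 (NM_009139, probe on mm9 chromosome 11, 83401997 to 83402056) read −0.46, −0.32 and −0.42 on the arrays of WT mice 2, 3 and 4, and 0.12, 0.53 and 0.17 on those of Selenbp1-KO mice 1, 2 and 3. All Selenbp1-KO arrays lay above all WT arrays, and Selenbp1-KO replicate 2 was the highest. The means were −0.40 ± 0.072 (SD, n = 3) and 0.27 ± 0.23 (SD, n = 3), a 1.59-fold change. The log2 difference of 0.67 (standard error 0.14) had an unadjusted p of 0.0033 and an adjusted p of 0.28 from limma, or an adjusted p of 6.1e-04 with the trend and robust options. The unadjusted p was under 0.05 in 18 of 18 alternatives, with differences of 0.54 to 0.75.

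Ccl9 (NM_011338, chromosome 11, 83388223 to 83388282) read −2.43, −2.00 and −1.99 in WT and −1.39, −0.91 and −1.50 in Selenbp1-KO kidneys, in the same order of replicates. Here too the groups did not overlap and Selenbp1-KO replicate 2 was the highest. The difference of 0.88 (standard error 0.21, 1.84-fold) had an unadjusted p of 0.0056 and an adjusted p of 0.28 from limma, or of 0.0053 with the trend and robust options. It passed the unadjusted criterion in 17 of 18 alternatives, the exception being the slide row as a block, where it was 0.73. The related ligands Ccl3, Ccl4 and Ccl5 did not pass. Ccl5, which attracts T cells, differed by 0.08, and Ccl3 and Ccl4 were not well above background on any array.

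Ccl11, Ccl24 and Ccl26, the eotaxins, draw eosinophils through Ccr3. All 3 were higher at an unadjusted p under 0.05 in limma, as were 6.87% of all genes. None of the 3 was read on all 6 arrays, and Ccl26 was read on no array. Ccl24 (NM_019577, chromosome 5, 136046485 to 136046544) read −4.98, −5.76 and −6.19 on the WT arrays and −3.97, −3.79 and −4.39 on the Selenbp1-KO arrays. It was well above background on 1 WT array and on all 3 Selenbp1-KO arrays, and no WT array reached a Selenbp1-KO array. The difference of 1.59 (standard error 0.34, unadjusted p = 0.0031, adjusted p = 0.28 from limma) is measured against WT signals of which 2 lay at background, so its size is uncertain. With the trend and robust options the adjusted p was 0.023. It passed the unadjusted criterion in all 18 alternatives, with a range from 0.58 under normexp background correction to 2.15 with the slide row as a block.

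Ccl11 (NM_011330, chromosome 11, 81876369 to 81876428) read −4.56, −4.40 and −5.55 in WT and −3.62, −3.14 and −4.39 in Selenbp1-KO kidneys. The groups did not overlap, but Selenbp1-KO replicate 3 lay only just above WT replicate 3. It was well above background on 2 WT and 3 Selenbp1-KO arrays. The difference of 1.12 (standard error 0.42) had an unadjusted p of 0.038. It met the criterion in 10 of 18 alternatives, with a range of 0.52 under normexp background correction to 1.83 with the slide row as a block. It did not with quantile normalization (1.12), and lost it when any of 4 arrays was left out: WT replicate 2 (1.26), WT replicate 4 (0.77), Selenbp1-KO replicate 1 (1.07) or Selenbp1-KO replicate 2 (0.83). The order of the arrays was like that of the fat tissue markers: Adipoq, the fat hormone adiponectin, read 0.55, 1.05 and −0.62 in WT and 1.66, 2.70 and 0.19 in Selenbp1-KO kidneys. The summed level of the 5 fat markers was 1.79 to 3.55 in WT and 2.46 to 4.92 in Selenbp1-KO kidneys, none of them passed, and their part in the Ccl11 values was not tested. Ccl26 was not well above background on any array and its groups overlapped. Ccr3, the receptor, was not well above background either.

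**Figure D2:**
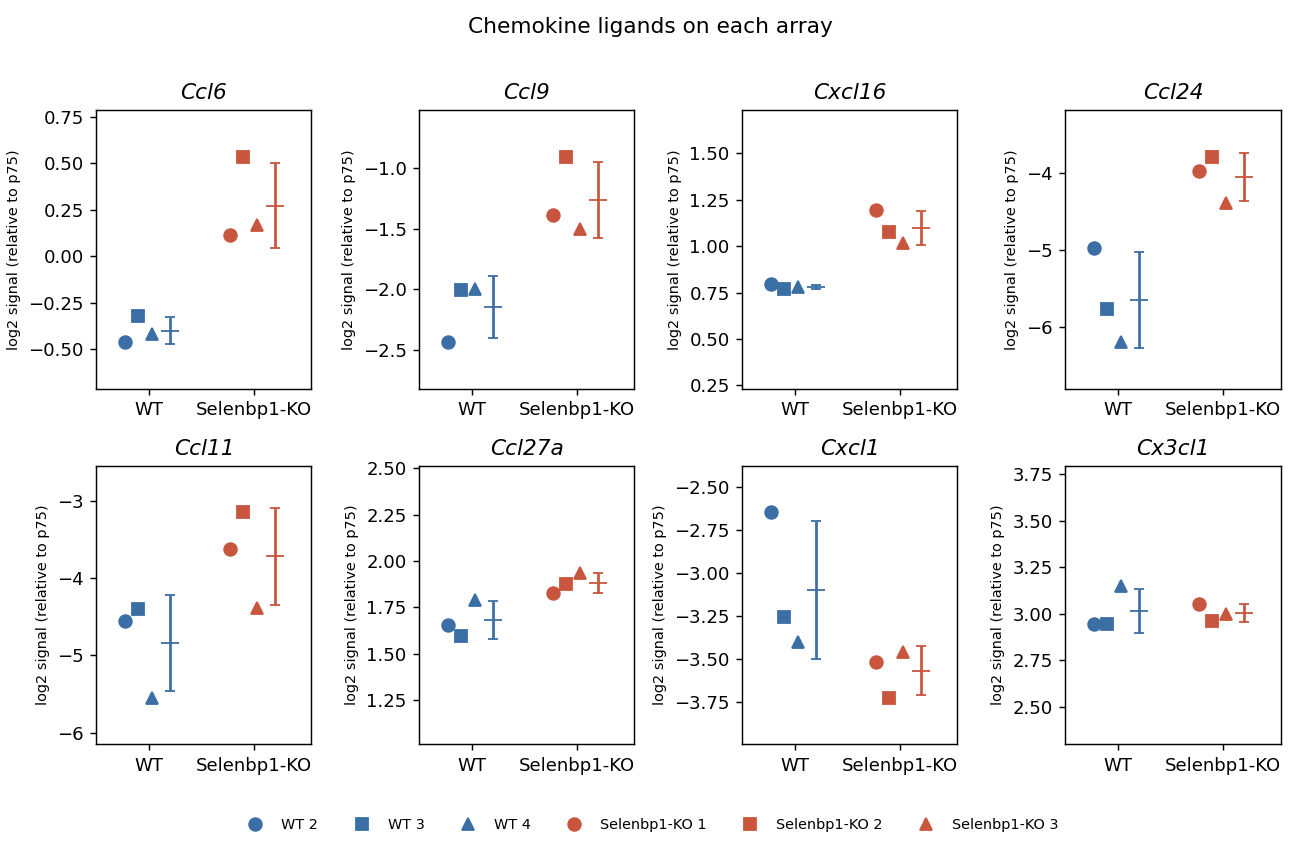
Log2 signal of 8 ligands on each array (y axis, log2 units relative to the 75th percentile, each panel with its own scale), WT in blue and Selenbp1-KO in red, with the mean and SD of 3 arrays beside the points. The genotypes do not overlap for Ccl6, Ccl9, Cxcl16, Ccl24, Ccl11, Ccl27a and, in the other direction, Cxcl1, whereas those of Cx3cl1 lie on each other.

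Cxcl16, a membrane-bound ligand that macrophages and endothelium use to hold Cxcr6-bearing T cells and NKT cells, read 0.79, 0.77 and 0.78 on the WT arrays and 1.19, 1.08 and 1.02 on the Selenbp1-KO arrays. The WT values lay close together (SD 0.012, n = 3), all below the Selenbp1-KO values. The difference was 0.32 (standard error 0.10, 1.24-fold), with an unadjusted p of 0.019 and an adjusted p of 0.28 from limma. A second probe of the same transcript, also well above background on all arrays, differed by 0.09 and did not pass. The first probe passed in 12 of 18 alternatives, but not with the slide row (0.32) or the replicate number (0.27) as a block. It also lost the criterion when WT replicate 2 (0.32), WT replicate 3 (0.31) or Selenbp1-KO replicate 1 (0.27) was left out.

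Cxcr6, its receptor, read −4.50, −4.57 and −3.24 in WT and −3.63, −3.96 and −3.54 in Selenbp1-KO kidneys. WT replicate 4 was the highest of the 6 and the groups overlapped, with a difference of 0.39 (unadjusted p = 0.34 from limma). A second Cxcr6 probe, read on 3 WT arrays and 1 Selenbp1-KO array, differed by −0.04 (unadjusted p = 0.92 from limma). Cxcr6 values below are those of the first probe. Ccl5 was likewise highest in WT replicate 4: −1.58, −1.70 and −0.19 in WT and −1.20, −0.83 and −1.21 in Selenbp1-KO kidneys. Gzma, the granzyme of cytotoxic T and NK cells, was also highest in WT replicate 4, at −1.59, against −3.57 and −3.16 in the other WT arrays. It is 1 of 10 listed T and NK cell markers, and all 10 had a higher mean in Selenbp1-KO kidneys. Their median difference was 0.20, and −0.12 with the slide row as a block, while Cd3e stayed higher in 17 alternatives (0.13 to 0.91). Without WT replicate 4, Ccl5 was higher in Selenbp1-KO kidneys by 0.56 and Cxcr6 by 0.83, both with an unadjusted p under 0.05, but 22.3% of all probes then had an adjusted p under 0.05. With the slide row as a block, where WT replicate 4 is the only WT array beside the Selenbp1-KO arrays, Ccl5 was lower by 0.89 (unadjusted p = 0.0073). Cxcr6 was lower by 0.47 there, the 1 of 18 alternatives in which it changed sign, while Ccl5 changed sign in 4.

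**Figure D3:**
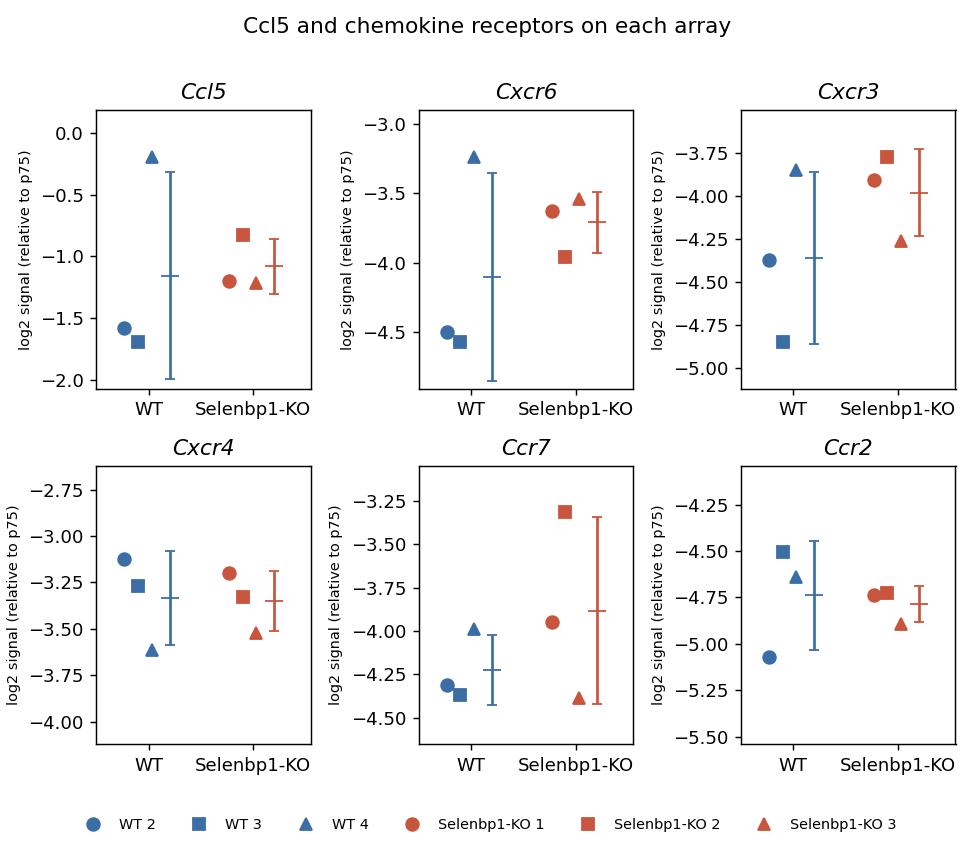
Log2 signal of Ccl5 and of 5 receptors on each array (y axis, log2 units relative to the 75th percentile, each panel with its own scale), WT in blue and Selenbp1-KO in red, with the mean and SD of 3 arrays. WT replicate 4, the blue triangle, is the highest array for Ccl5 and Cxcr6, and the genotypes overlap in all 6 panels.

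The neutrophil attractants that act on Cxcr2 did not pass. Cxcl1, the member read on all arrays, was at −2.65, −3.25 and −3.40 in WT and −3.52, −3.72 and −3.46 in Selenbp1-KO kidneys. It was the 1 gene of the 21 with every Selenbp1-KO array below every WT array, and WT replicate 2 stood above the rest. The difference of −0.47 had an unadjusted p of 0.075, and it was −0.24 without WT replicate 2. Cxcl2, Cxcl3, Cxcl5 and Cxcl15 were not well above background on any array.

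Ccl2, the main attractant of monocytes through Ccr2, read −3.94, −4.49 and −3.72 in WT and −3.70, −3.58 and −4.44 in Selenbp1-KO kidneys. The groups overlapped in part, and the difference of 0.14 (standard error 0.30) changed sign in 3 alternatives. Ccr2 read −5.07, −4.51 and −4.64 in WT and −4.73, −4.72 and −4.89 in Selenbp1-KO kidneys, or a log2 change of −0.05 (standard error 0.17). It was well above background on 3 WT arrays and 1 Selenbp1-KO array. Ccl7 was read on no array. Ccl12 passed, higher in Selenbp1-KO kidneys, but was not well above background on any array.

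Cxcl9, Cxcl10 and Cxcl11 are induced by interferon and call T cells through Cxcr3. Cxcl10 read −1.16, −1.30 and −1.01 in WT and −1.32, −1.24 and −1.15 in Selenbp1-KO kidneys, with overlapping groups and a difference of −0.08 (standard error 0.12). A second Cxcl10 probe, well above background on no array, had an unadjusted p of 0.033. Cxcl9 was well above background on 2 WT arrays and 1 Selenbp1-KO array. Cxcr3 read −4.37, −4.85 and −3.85 in WT and −3.91, −3.77 and −4.26 in Selenbp1-KO kidneys, overlapping, with a difference of 0.38 (unadjusted p = 0.22 from limma).

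The brightest probe of Cxcl11 read 7.64, 7.39 and 7.91 in WT and 7.47, 7.91 and 7.60 in Selenbp1-KO kidneys. The groups overlapped. This probe ranked 120 of 56605 probes by its mean. It holds a run of 20 bases, shown because the same letters stand in 4 probes of other genes.
Cxcl11 probe run: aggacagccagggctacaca
All 4 of those probes had a mean signal above the 75th percentile, as 21.6% of all probes did. Whether this probe reads Cxcl11 mRNA alone was not tested. Over all its runs of 20 bases, it shared 1 or more with probes of 6 other genes. The second Cxcl11 probe, for the same transcript, had a mean of 1.26, against 7.65 for the brightest. The brightest probe differed by 0.01 between the genotypes and the second by −0.07. Elsewhere in the family a run of that length was shared with a probe of another gene by 1 probe, the dimmest of Ccl27a.

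Cxcl12, Cx3cl1, Cxcl14 and Ccl25 are made by tissues without inflammation. Cxcl12, the ligand of Cxcr4 that retains stem cells and lymphocytes, read 4.07, 4.16 and 4.17 in WT and 4.20, 4.16 and 4.26 in Selenbp1-KO kidneys. Cx3cl1, the membrane-anchored fractalkine that holds monocytes through Cx3cr1, read 2.95, 2.95 and 3.15 in WT and 3.05, 2.96 and 3.00 in Selenbp1-KO kidneys. The groups overlapped for both, with differences of 0.07 (standard error 0.10) and −0.01 (standard error 0.11). Cxcl14 read 1.28, 1.29 and 1.71 in WT and 1.72, 1.80 and 1.44 in Selenbp1-KO kidneys, and Ccl25, the gut and thymus ligand of Ccr9, 0.29, 0.01 and 0.42 against 0.14, 0.15 and 0.14. Neither passed, with differences of 0.23 and −0.10.

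The Ccr10 ligands of epithelia gave a divided picture. Ccl27a had 3 probes, and on each of them the Selenbp1-KO arrays all lay above the WT arrays. Among genes read on all 6 arrays, 12.8% had all Selenbp1-KO arrays above WT. The probes that differed by 0.20 and 0.27 overlap in position, so they are not separate readings. The brightest read 1.66, 1.60 and 1.79 in WT and 1.83, 1.88 and 1.93 in Selenbp1-KO kidneys, 0.20 apart with an unadjusted p of 0.11. The others differed by 0.27 and 0.55, with unadjusted p values of 0.040 and 0.0063 from limma. RefSeq lists Ccl27b and predicted genes for transcripts of the probes that differed by 0.20 and 0.27. Near-identical copies therefore cannot be told apart in them. For the probe that differed by 0.55 only Ccl27a is listed, but it shares a run of 20 bases with a probe of another gene. Ccl28 read −2.26, −1.91 and −2.35 in WT and −1.68, −1.90 and −1.96 in Selenbp1-KO kidneys, overlapping, with a difference of 0.33 (unadjusted p = 0.082).

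Ccl19 and Ccl21a lead T cells and dendritic cells to lymph nodes through Ccr7. Ccl19 read −2.04, −1.86 and −1.62 in WT and −1.49, −1.12 and −1.63 in Selenbp1-KO kidneys. WT replicate 4 lay within the Selenbp1-KO range, and the difference of 0.43 had an unadjusted p of 0.055. Ccl21a read 0.05, 0.22 and −0.10 in WT and −0.11, 0.65 and −0.08 in Selenbp1-KO kidneys, where 1 array was high. RefSeq lists predicted genes beside Ccl21a for the transcripts of its probe, so near-identical copies cannot be told apart in it. Ccr7 read −4.31, −4.37 and −3.99 in WT and −3.95, −3.31 and −4.38 in Selenbp1-KO kidneys, with the same Selenbp1-KO replicate 2 the highest. Ccl17, the Ccr4 ligand of dendritic cells, was also highest there, at −2.15, against −3.95, −3.81 and −3.21 in WT and −3.49 and −3.35 in the other Selenbp1-KO arrays. The differences of Ccl21a, Ccr7 and Ccl17 were 0.10, 0.34 and 0.66, none under the criterion.

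Of the 18 receptors, 1 was higher and 1 lower, beside 6.87% and 1.13% of all genes. Neither was well above background on any array, and among all genes read on no array 10.8% passed in either direction. Cxcr4, the receptor of Cxcl12, read −3.12, −3.27 and −3.62 in WT and −3.20, −3.33 and −3.52 in Selenbp1-KO kidneys, or a log2 change of −0.01 (standard error 0.17). A second Cxcr4 probe, well above background on no array, had an unadjusted p of 0.025. Ccr1, the receptor of Ccl6 and Ccl9, was not read on any array, so ligand and receptor could not be set side by side.

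The 27 genes read on no array held 5 of the 10 that passed. Ccl12, Ccl26 and Ccr8, a receptor of regulatory T cells, were higher. Ccr6, the receptor of Ccl20, and Cxcl17, a ligand of mucosal surfaces, were lower. Among all genes read on no array, 10.8% passed in either direction, and the median of the 27 was 0.37. These calls rest on signals near background. The other ligands among the 27 were Ccl1, Ccl3, Ccl4, Ccl7, Ccl20, Ccl22, Cxcl2, Cxcl3, Cxcl5, Cxcl15 and Xcl1, and the other receptors included Ccr1, Ccr1l1, Ccr3, Ccr4, Ccr9, Ccr10, Cxcr1, Cxcr2, Cxcr5 and Xcr1. None of these passed. Cxcl13, the B cell attractant that acts on Cxcr5, was read on 2 arrays of each genotype and differed by 0.76 (standard error 0.61).

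By position, the called genes were spread over the family's clusters on mm9, beside 6.87% higher and 1.13% lower among all genes. The chromosome 11 cluster of Ccl5, Ccl9, Ccl6, Ccl3 and Ccl4 held 2 that were higher, that of Ccl2, Ccl7, Ccl11, Ccl12 and Ccl1 held 2, and both Ccl26 and Ccl24 on chromosome 5 were higher. The receptor genes Ccr9, Cxcr6, Xcr1, Ccr1, Ccr1l1, Ccr3 and Ccr2 lie in 1 stretch of chromosome 9, and none of them passed.

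Family members with other names were read beside these. Of 9 (Pf4, Ppbp, Cx3cr1, Ackr1, Ackr2, Ackr3, Ackr4, Ccrl2 and Cklf), 3 were higher and none lower, where 6.87% of all genes were higher and 1.13% lower. Only 1 of the 9 was higher with the methods' t-test, without WT replicate 3 or without Selenbp1-KO replicate 1. Pf4 and Ppbp are CXC chemokines stored in platelets. Pf4 read −1.23, −1.77 and −1.88 in WT and −0.29, −0.31 and −1.09 in Selenbp1-KO kidneys. The groups did not overlap, and the difference of 1.06 (unadjusted p = 0.0095) passed in 17 of 17 alternatives run for it. Ppbp read −3.47, −4.02 and −4.09 in WT and −2.40, −2.60 and −3.48 in Selenbp1-KO kidneys, where Selenbp1-KO replicate 3 and WT replicate 2 met, with a difference of 1.03 (unadjusted p = 0.019). It did not pass without WT replicate 3, WT replicate 4, Selenbp1-KO replicate 1 or Selenbp1-KO replicate 2. Red blood cell genes moved in the same samples: all 4 listed were higher, with Hbb-b1, a beta globin, at 1.88 to 2.09 in WT and 3.43, 3.55 and 2.76 in Selenbp1-KO kidneys, and their summed level was 8.05 to 8.47 against 8.57 to 9.16. The part of blood in the kidney in the Pf4 and Ppbp values was not tested. Ackr4, a scavenging receptor, was higher but well above background on no array.

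Genes of signaling and induction were counted by the same criterion, which 6.87% of all genes met as higher and 1.13% as lower. Of 34 genes of chemokine receptor signaling (G protein subunits, arrestins, kinases and exchange factors), 2 were higher and none lower, with a median difference of 0.04. Vav1, the exchange factor of leukocytes for Rac, differed by 0.40 with groups that did not overlap. It lost the criterion without WT replicate 2, without WT replicate 3 and with the slide row as a block, where it differed by 0.22. Of 22 genes of the NF-kappaB and cytokine pathways that induce chemokines, 1 was higher and none lower, with a median of 0.08. That gene was Vcam1, the endothelial adhesion molecule, with −1.06, −1.03 and −0.97 in WT and −0.59, −0.55 and −0.76 in Selenbp1-KO kidneys (difference 0.39, unadjusted p = 0.010), and it did not pass with the slide row or the replicate number as a block. With the slide row as a block 0 of the 34 and 0 of the 22 passed, and without WT replicate 4 these counts were 5 and 6. Without WT replicate 2, 0 of the 34 were higher and 1 lower, and with quantile normalization 2 were higher and 3 lower. Tnf differed by 0.08 and Nfkbia by 0.03, while Il1a, Il6, Ifng and Il17a were well above background on no array.

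Markers of cell types were counted by the same criterion, which 6.87% of all genes met as higher and 1.13% as lower. Among genes read on all 6 arrays these shares were 4.42% and 1.07%. Macrophage markers, like Ccl6, Ccl9 and Ccl24, were in part higher in Selenbp1-KO kidneys. Of 10 listed, 6 were higher and none lower: Cd68, C1qa, C1qb, C1qc, Mrc1 and Lyz2, by 0.36 to 0.74. Adgre1, Csf1r, Cd14 and Fcgr1 did not pass. Lyz2, the lysozyme of myeloid cells, read 2.74, 2.22 and 2.24 in WT and 3.17, 3.18 and 3.08 in Selenbp1-KO kidneys. Within WT, replicate 2 was the highest for Lyz2, 1 of the 10 markers, and for Ccl24, and the lowest for Ccl6 and Ccl9. The WT values of Ccl6 lay close together (SD 0.072, n = 3), and this order of 3 arrays was not tested. The summed level of the 10 was 4.02 to 4.31 in WT and 4.47 to 4.59 in Selenbp1-KO kidneys, and Fcgr1 was well above background on no array. With the slide row as a block, 3 of the 10 were higher. Their part in the chemokine differences was not tested. Of 8 neutrophil markers none passed, and of 10 T and NK cell markers 1 did, Cd3e, with a difference of 0.64. No B cell or lymph node marker (7 listed), tubule marker (8) or endothelium marker (6) passed, and the 8 tubule markers, with a summed level of 9.03 to 9.13 over the 6 arrays, were well above background on all of them. Cd3e passed in 10 of 17 alternatives, with differences of 0.13 to 0.91, and lost the criterion with the slide row as a block and when any array but WT replicate 4 was left out. The glomerulus list had 1 of 5 higher and the fat list 0 of 5. Of the 5 adrenal cortex markers 1 was higher, Cyp17a1, by 0.44, with 4 higher without WT replicate 4 and 0 with the slide row as a block or without WT replicate 2, Selenbp1-KO replicate 1 or Selenbp1-KO replicate 3. The median of the 5 was 0.38, and −0.01 with quantile normalization. Their summed level was 1.80 to 2.15 in WT and 2.32 to 2.55 in Selenbp1-KO kidneys, Cyp11b1, Cyp11b2 and Mc2r were well above background on no array, and the part of adrenal tissue in the chemokine differences was not tested.

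**Figure D4:**
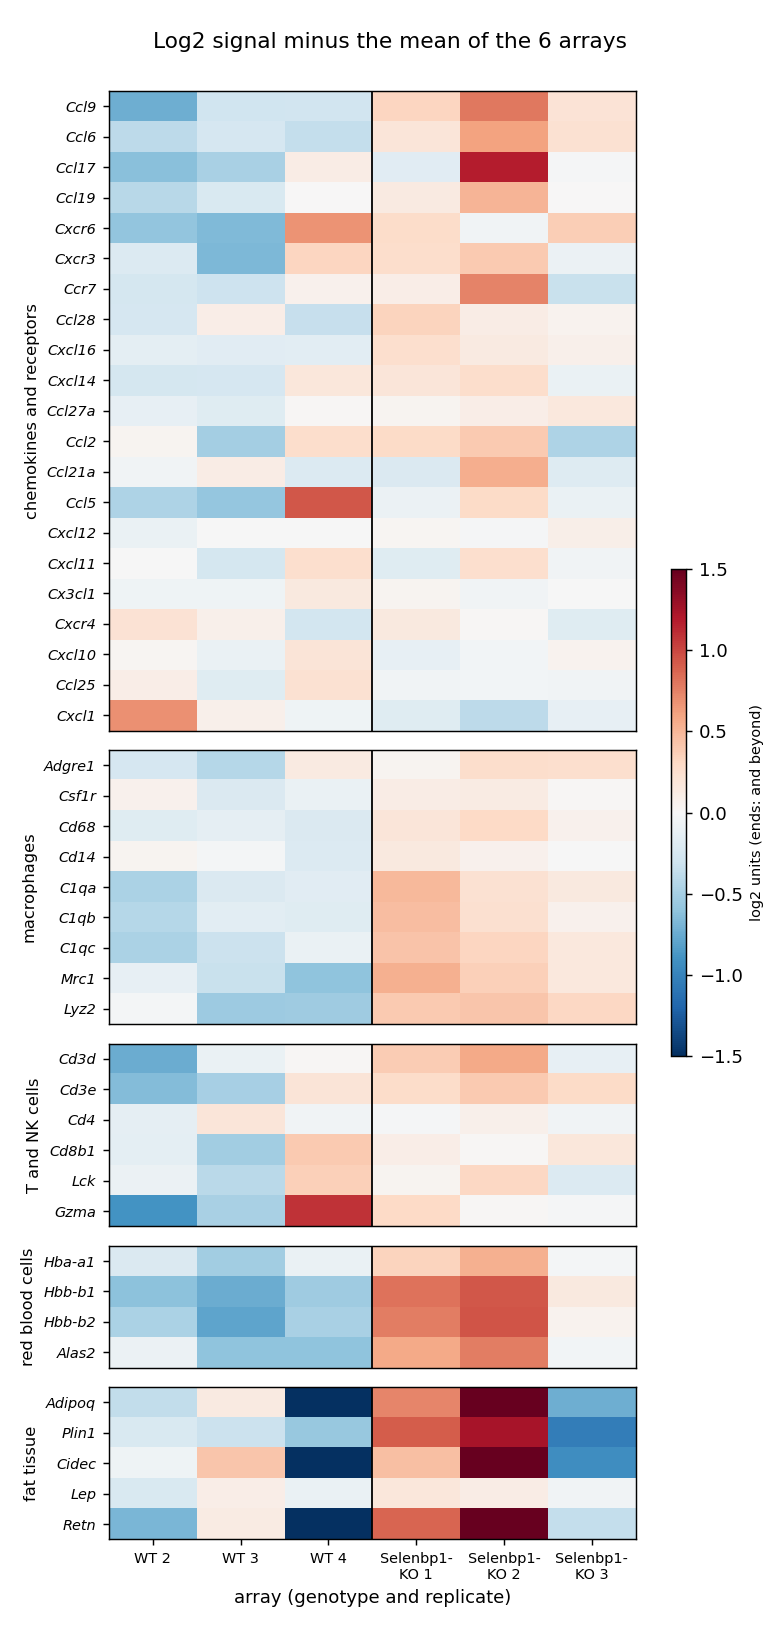
Log2 signal minus the mean of the 6 arrays (colour, log2 units, red higher and blue lower) for the 21 chemokine and receptor genes well above background on all arrays, and for listed markers of other cells. Columns are the 6 arrays, with a line between WT and Selenbp1-KO: Ccl6 and Ccl9 are red in all 3 Selenbp1-KO columns as are C1qa, C1qb and C1qc, whereas Ccl5, Cxcr6 and Gzma are reddest in WT replicate 4.

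**Figure D5:**
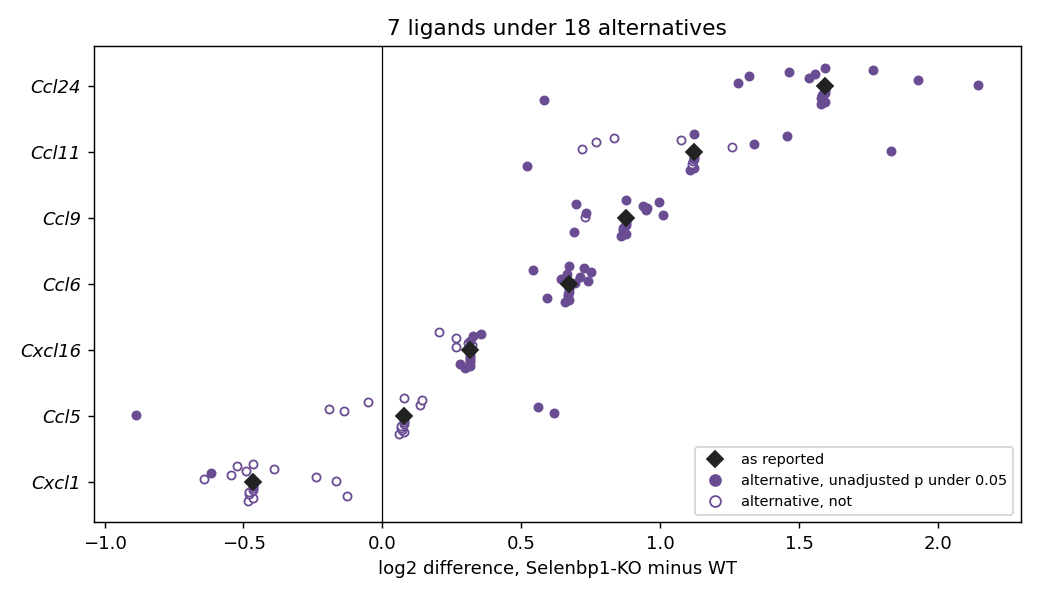
Log2 difference (x axis, log2 units, Selenbp1-KO minus WT) of 7 ligands as reported (diamond) and under each of 18 alternatives (circles, filled where the unadjusted p was under 0.05). Ccl6 stays between 0.54 and 0.75 and filled throughout, whereas Ccl5 falls on both sides of 0.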

How the data were processed

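The 6 arrays were read from the scanner output that the authors deposited, made with Agilent Feature Extraction (version 9.5.1.1 per the submitters' processing notes). It gives linear background-subtracted intensities that are not scaled between arrays, flags, and for each spot a detection p-value that the scanner software wrote into the files the authors deposited. A deposited table of 1 intensity per probe, with equal distributions in its 6 columns, served as an alternative. Here log2 intensities were set relative to each array's 75th percentile over 59305 non-control spots, flagged outlier spots were left out, and spots of 1 probe were averaged. WT and Selenbp1-KO arrays were compared by limma's moderated test (3.58.1, two-sided, R 4.3.3, statmod 1.5.0 for the robust option) for the 56097 probes whose detection p was under 0.05 on 1 array or more. The threshold was the methods' unadjusted p under 0.05, with Benjamini–Hochberg adjusted values over all probes beside it. The 18 alternatives were other scalings (median, quantile, the deposited table), normexp correction (offset 50), outlier spots kept, other filters, and trend and robust options. They also held Student's t-test, slide row or replicate number as a block, each array left out, and the mean of a gene's probes. The comparison was tested on simulated data. Gene names and coordinates (mm9) are those of the files, and a gene is represented by its brightest probe, averaged over the 6 arrays. A probe was read on an array where the software called it well above background. The family's members and all lists were chosen with earlier results of these data known, and Ackr3, once named Cxcr7, was put with the other family names after the files were seen. Values of each array are given for members read on all 6 arrays, for those past the threshold or without overlap that were read on all arrays of 1 genotype, and for Ccl2, Cxcl1, Cxcl10, Cxcl12, Cx3cl1, Ccl19, Ccl21a, Ccr2 and Cxcr4. The values of 1 member are not reported here. The mice are separate animals, and 3 arrays against 3 limit the precision: the smallest exact permutation p such a design allows is 0.1. No sample was left out. The study's other measurements were not analysed here.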

Additional observations from a re-analysis of the deposited data

How the results depend on the processing

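The count of 10 family genes with an unadjusted p under 0.05 was 17 with scaling by the median, 6 with only probes well above background (24 genes tested) and 26 with a replicate block. Leaving out 1 array gave 6 to 28: WT replicate 2 and Selenbp1-KO replicate 2 each gave 6 when left out, and WT replicate 4 gave 28, of which 25 were higher. The cause was not tested, except that the stricter filter tests fewer genes. In the remaining alternatives the count was 7 to 13. As reported, 7.99% of all genes passed. Their share in the alternatives is not given here, so these counts cannot be read as particular to the family. The slide row as a block gave 8, 4 higher and 4 lower, and turned Ccl5 from 0.08 to −0.89. Among the genes read on all 6 arrays, 2 to 10 passed, against 3. After adjustment, Ccl6, Ccl9 and Ccl24 passed with the trend and robust options, and 14 family genes without WT replicate 4, with 22.3% of all probes. Ccl6 and Ccl24 kept their direction and their unadjusted p under 0.05 in all 18 alternatives. The difference of Selenbp1 stayed between −3.02 and −2.92. Student's t-test gave 7 genes, and none after Benjamini–Hochberg adjustment. Groups share only the replicate numbers 2 and 3, whose arrays deviated together with correlations of 0.17 and 0.19 over 28515 probes. That is too few pairs to treat the numbers as a pairing, so the replicate block stands as an alternative only. Of the genes read on no array, no size of change can be given, since their signals lie near background.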
